A study of Mus musculus with 4 samples.

Results

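The genes described here are ligands, receptors and transducers of the ephrin, Slit-Robo and netrin guidance systems, measured by RNA-seq of polyadenylated RNA from mouse cerebral cortex. A list of 44 symbols was matched to the symbol column of the count table, and 41 of them were found among its 13289 genes. Epha6, Slit3 and Robo3 are not analysed here. All 41 passed the filter on low counts. The 4 libraries came from embryonic day 15 (E15) and fell into 2 groups. The 2 control libraries carry WT in their titles and are described as control cortex. The other 2 are named Lhx2cKO, read here as a conditional knockout of Lhx2, and are called Lhx2 cKO. The driver of the deletion, the strain, the number of embryos per library and their sex are not given in the sources used here. Nothing in the labels says whether the 2 libraries of a group came from separate embryos. The p-values therefore rest on the spread between these libraries, in large part pooled over genes, and this spread may be technical.

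Eph receptors are receptor tyrosine kinases whose ligands, the ephrins, sit on the membrane of the neighbouring cell, so that signals pass both ways at a contact. Slits are secreted proteins that repel growing axons and migrating neurons through Robo receptors. Netrin-1 attracts through Dcc and repels through Unc5 receptors, while the repulsive guidance molecules (RGMs) act through neogenin, the product of Neo1. In the developing cortex these systems steer migrating neurons and set the paths of callosal, corticofugal and thalamocortical axons.

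Total counts ranged from 22294237 to 24609627 per library, so that 3 counts, the floor used here, equal 0.122 to 0.135 CPM (reads of a gene scaled to a fixed library size), a bound that covers counting error only. Lhx2 itself, the targeted transcription factor gene, was at 316 and 287 CPM in control and at 239 and 247 CPM in Lhx2 cKO, which is -0.31 on the log2 scale with a standard error (SE) of 0.098 and an edgeR adjusted p of 0.0191. Its call was lost without control 1 (0.176), without Lhx2 cKO 1 (0.102) and without Lhx2 cKO 2 (0.0538), within a range of 0.00755 to 0.176 over all alternatives. Markers of cortical neurons and progenitors such as Tbr1, Pax6 and Eomes were present in all libraries, though not all at equal levels. Pax6 was lower in Lhx2 cKO by -1.24 on the log2 scale (edgeR adjusted p 6.4e-13) and Eomes by -1.66 (5.49e-17). Tbr1 was at 0.08 (0.615).

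The promoters of 4 called guidance genes are shown, chosen by the size of their change or, for Epha5, by a motif. Efnb1 and Epha4 had the largest falls, Ephb1 had the largest rise among those above 10 CPM in both groups, and Epha5 was the called gene whose promoter held the letters TAATTA. That core motif is recognised by LIM-homeodomain factors and is its own reverse complement, so 1 search covers both strands. Each line gives the 250 bases before the RefSeq start on GRCm38.p6, 5′ to 3′ along the gene's strand, with TAATTA in capitals.

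Efnb1, chrX:99135811-99136060, plus strand: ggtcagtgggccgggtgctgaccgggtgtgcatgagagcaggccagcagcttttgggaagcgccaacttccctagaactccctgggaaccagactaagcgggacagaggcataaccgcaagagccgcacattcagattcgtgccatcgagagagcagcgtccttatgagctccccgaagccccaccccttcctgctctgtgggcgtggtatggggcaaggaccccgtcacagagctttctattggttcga
Epha4, chr1:77515089-77515338, minus strand: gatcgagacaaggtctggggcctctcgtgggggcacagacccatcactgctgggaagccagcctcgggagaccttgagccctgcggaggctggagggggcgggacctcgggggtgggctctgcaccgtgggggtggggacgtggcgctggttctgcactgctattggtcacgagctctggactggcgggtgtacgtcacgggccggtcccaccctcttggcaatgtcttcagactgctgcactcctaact
Epha5, chr5:84417383-84417632, minus strand: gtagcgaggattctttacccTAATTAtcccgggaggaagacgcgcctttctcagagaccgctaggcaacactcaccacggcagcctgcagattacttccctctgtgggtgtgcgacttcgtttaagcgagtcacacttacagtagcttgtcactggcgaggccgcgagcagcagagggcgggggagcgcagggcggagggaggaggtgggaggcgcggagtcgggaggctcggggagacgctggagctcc
Ephb1, chr9:102354694-102354943, minus strand: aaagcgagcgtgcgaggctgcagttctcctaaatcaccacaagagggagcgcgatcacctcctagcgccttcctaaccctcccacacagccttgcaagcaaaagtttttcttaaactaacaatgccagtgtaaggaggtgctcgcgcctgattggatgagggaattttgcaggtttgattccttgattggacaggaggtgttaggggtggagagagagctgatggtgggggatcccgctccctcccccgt

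In Epha5 the motif begins 230 bases before the start. The RefSeq table held promoters, as windows of 300 bases that add the first 50 transcribed bases, for 35 of the 41 genes. TAATTA occurred in a window of 2 of these 35, Epha5 and Efna1, and in 6.12% of all genes in the table. Of the 15 called genes with a promoter, 1 held it. The guidance promoters were rich in G and C, with a median of 65.3% against 52.7% over all promoters, and had a median of 24 CpG dinucleotides against 7. The promoters cover 27025 genes, more than the 13289 with counts here. The shares and medians over all are therefore not a like background for the guidance genes. Matches are a description of letters in these windows and say nothing of binding there or elsewhere.

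Of the 41 guidance genes, 19 were called, that is, they had an adjusted p under 0.05 in edgeR's two-sided quasi-likelihood test with adjustment over all genes. Over all 13288 genes tested the share called was 20.8%, and among the guidance genes it was 46.3%. The guidance genes were chosen with earlier results of these data known. These shares, and those of each system below, are a description only. Above a mean level of 10 CPM, 16 of 34 guidance genes (47.1%) were called, where 22.4% of all genes at that level were. The calls went in both directions, 12 higher and 7 lower in Lhx2 cKO, with shares over all genes of 11.6% and 9.17%. The median log2 fold change of the 41 was 0.08, against 0.003 over all genes. The 2 groups did not overlap in 25 of the 41 genes (61.0%), beside 59.3% of all genes tested, and the 25 include all 19 called. A change of at least 1.5-fold was seen in 8 of the called genes, a size reached with a call by 8.88% of all genes. In the authors' deposited table, an adjusted p under 0.05 was given to 19 of the 41 genes, and these are the 19 called here.

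**Figure D1:**
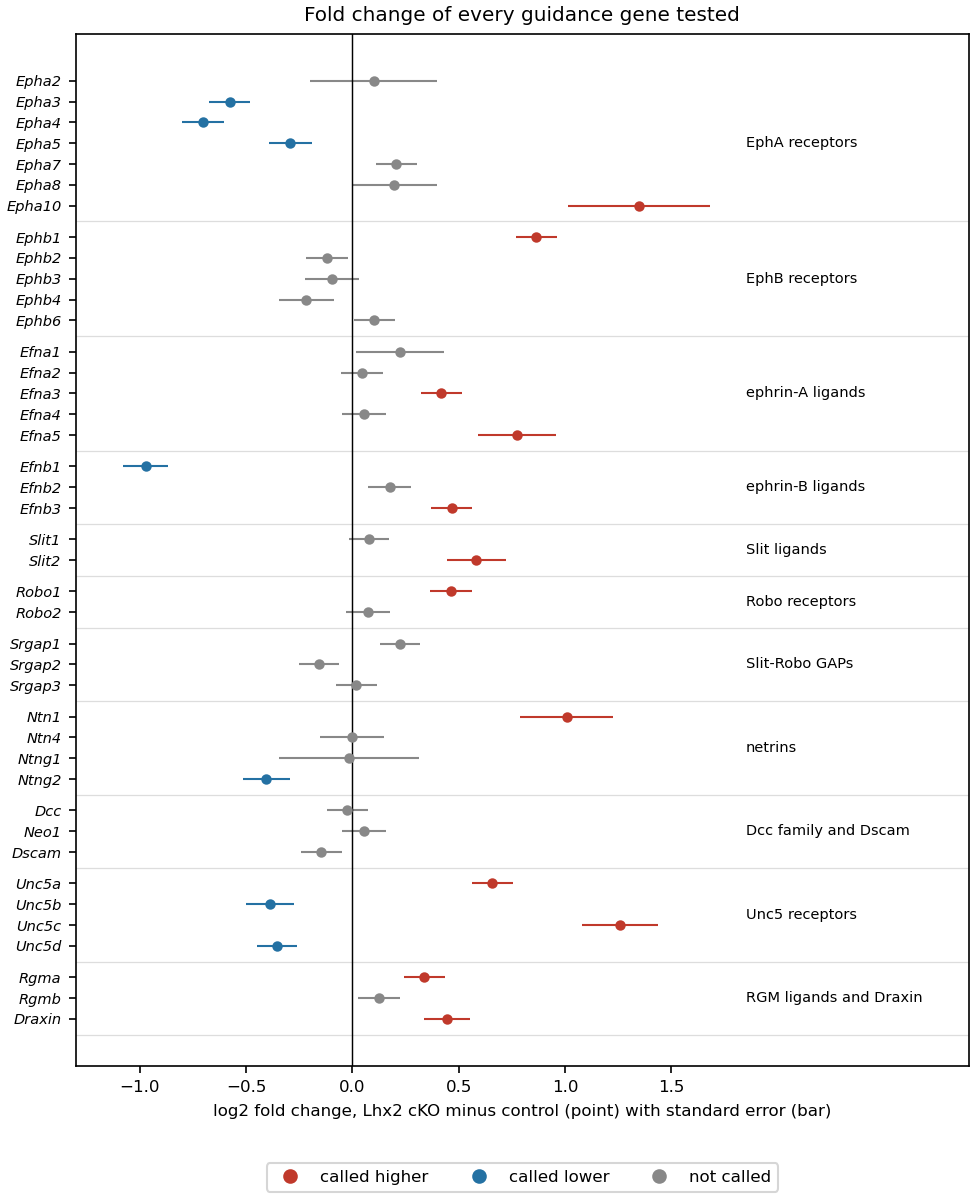
The x axis is the log2 fold change of Lhx2 cKO minus control and each row is a guidance gene, grouped by family, with points for the edgeR estimate and bars for its standard error. Of the 41 genes 12 were called higher and 7 lower, and the ephrin-B, EphA, netrin and Unc5 families each hold calls in both directions.

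Among Eph receptors and ephrins, 9 of 20 genes were called, 5 higher and 4 lower, or 45.0% beside 20.8% over all genes, with a median log2 fold change of 0.10. The lower genes were the ligand Efnb1 and the receptors Epha3, Epha4 and Epha5, and the higher genes were the receptors Ephb1 and Epha10 and the ligands Efna3, Efna5 and Efnb3. In bulk tissue, fewer cells of a type and less RNA per cell cannot be told apart, here and in all results that follow.

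Efnb1 encodes ephrin-B1, a transmembrane ligand known from cortical progenitors. Its level was 451 and 400 CPM in the control libraries and 194 and 240 CPM in Lhx2 cKO. The lowest control library was well above the highest Lhx2 cKO library. The means were 426 ± 36.3 and 217 ± 32.7 CPM (SD, n = 2), or -0.97 on the log2 scale with SE 0.106 and an edgeR adjusted p of 2.23e-09. Efnb1 lies on the X chromosome, and each library held counts of both Xist, the X-inactivation transcript, and the Y-linked Ddx3y and Eif2s3y. Xist was at 1918 and 1962 CPM in control and at 1598 and 1600 CPM in Lhx2 cKO (adjusted p 0.0803). Eif2s3y was at 52.5 and 57.8 CPM in control and at 74.0 and 73.0 CPM in Lhx2 cKO and was called higher (0.41, adjusted p 0.00192), while Ddx3y averaged 24.1 ± 1.95 and 27.0 ± 2.87 CPM (SD, n = 2) and was not called (0.16, adjusted p 0.380). The part of embryo sex in the Efnb1 result was not tested.

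The other ephrin-B ligands did not follow Efnb1. Efnb3, the ephrin-B3 gene, rose, with group means of 151 ± 1.20 and 208 ± 17.7 CPM (SD, n = 2) and a log2 change of 0.47 (SE 0.096, adjusted p 3.11e-04 in edgeR). Efnb2, which marks arterial endothelium as well as neural cells, was at 359 and 384 CPM in control and at 402 and 437 CPM in Lhx2 cKO and was not called (0.18, adjusted p 0.233). Divided by gene length, so that genes can be set side by side, ephrin-B1 made up 56.8% and 52.8% of the summed ephrin-B level in control and 31.8% and 34.3% in Lhx2 cKO. In control, Efnb1 was at 123 ± 10.5 CPM per kb, above Efnb2 at 54.2 ± 2.56 and Efnb3 at 47.3 ± 0.376 CPM per kb (SD, n = 2). In Lhx2 cKO the 3 levels were 62.8 ± 9.47, 61.2 ± 3.64 and 65.5 ± 5.56 CPM per kb (SD, n = 2), close beside the spread between libraries. Before division by length, Efnb2 was the highest in Lhx2 cKO, at 420 CPM against 217 CPM for Efnb1 and 208 CPM for Efnb3. Their deposited lengths are 6.855 kb for Efnb2, 3.452 kb for Efnb1 and 3.183 kb for Efnb3. The spread holds no error of length, so these ranks and shares depend on the lengths used.

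Epha4 encodes a receptor that binds ephrins of both classes. It was at 273 and 308 CPM in control and at 171 and 186 CPM in Lhx2 cKO. No library of one group reached the range of the other, and the log2 change was -0.70 (SE 0.098, adjusted p 5.24e-07 in edgeR). Epha3, a receptor for ephrin-A ligands, fell, with group means of 204 ± 10.5 and 136 ± 7.86 CPM (SD, n = 2) and a log2 change of -0.58. Epha5, also an ephrin-A receptor, fell, with group means of 403 ± 20.5 and 329 ± 9.02 CPM (SD, n = 2) and a log2 change of -0.29 (adjusted p 0.0312 in edgeR). The call of Epha5 was lost without control 2 (adjusted p 0.200), without Lhx2 cKO 1 (0.14) and without Lhx2 cKO 2 (0.0711), and over the alternatives its adjusted p ranged from 0.00913 to 0.200.

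Not every EphA receptor was lower. Epha10, whose product lacks kinase activity, had few counts, 41 and 34 in the control libraries against 77 and 101 in the Lhx2 cKO pair. That is 1.69 and 1.36 CPM against 3.38 and 4.40 CPM, which is 1.35 on the log2 scale with SE 0.336 and an edgeR adjusted p of 0.00272, and the call was lost without Lhx2 cKO 2 (0.0683, within 0.00122 to 0.0683 over the alternatives). Epha7 was at 73.1 and 75.5 CPM in control and at 82.4 and 89.02 CPM in Lhx2 cKO and was not called (0.21, adjusted p 0.133). Epha2 and Epha8 stayed below 10 CPM in every library and were not called. Summed per length, EphA receptors were at 89.4 and 97.4 CPM per kb in control and at 66.7 and 71.5 in Lhx2 cKO. Epha4, the EphA gene of the highest level per length, held 37.9% and 39.3% of that sum in control and 31.8% and 32.2% in Lhx2 cKO. Before division by length, Epha5 was higher in control, at 403 CPM against 290 CPM. Its deposited length is 16.7 kb against 8.05 kb for Epha4, so this rank depends on the lengths used.

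Among EphB receptors 1 of 5 was called. Ephb1, a receptor for ephrin-B ligands, was at 96.0 and 102 CPM in control and at 169 and 190 CPM in Lhx2 cKO. Both Lhx2 cKO libraries lay far above both controls, and the log2 change was 0.86 (SE 0.096, adjusted p 3.64e-09 in edgeR). Ephb2, Ephb3, Ephb4 and Ephb6 were not called, with log2 fold changes from -0.22 to 0.10. Ephb6, which encodes a kinase-inactive receptor, had the highest level per length of the EphB genes, 48.3 ± 1.05 CPM per kb in control and 51.9 ± 4.62 in Lhx2 cKO (SD, n = 2). Before division by length, Ephb2 was higher, at 304 CPM in control and 280 CPM in Lhx2 cKO, against 182 and 196 CPM for Ephb6. The deposited lengths are 12.6 kb for Ephb2 and 3.77 kb for Ephb6, so this rank depends on the lengths used. Ephb1 rose from 14.3% and 15.5% of the summed EphB level per length in control to 24.0% in both Lhx2 cKO libraries.

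Of the ephrin-A ligands, which are anchored to the membrane by a lipid, 2 of 5 were called and both were higher. Efna5 was at 6.39 and 6.40 CPM in control and at 11.3 and 10.6 CPM in Lhx2 cKO, which is 0.77 on the log2 scale with SE 0.184 and an edgeR adjusted p of 0.00174. Efna3 rose, with group means of 63.8 ± 1.88 and 85.3 ± 3.35 CPM (SD, n = 2) and a log2 change of 0.42. In GENCODE M21 14.1% of the Efna3 exon bases overlap an antisense gene, Gm15998, and the strand setting of the counting is not given in the sources used here, so this value is uncertain. Efna1, Efna2 and Efna4 were not called, with log2 fold changes from 0.04 to 0.22. Efna2 had the highest level per length of the ligands of this class in control, 44.0 ± 4.38 CPM per kb (SD, n = 2).

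**Figure D2:**
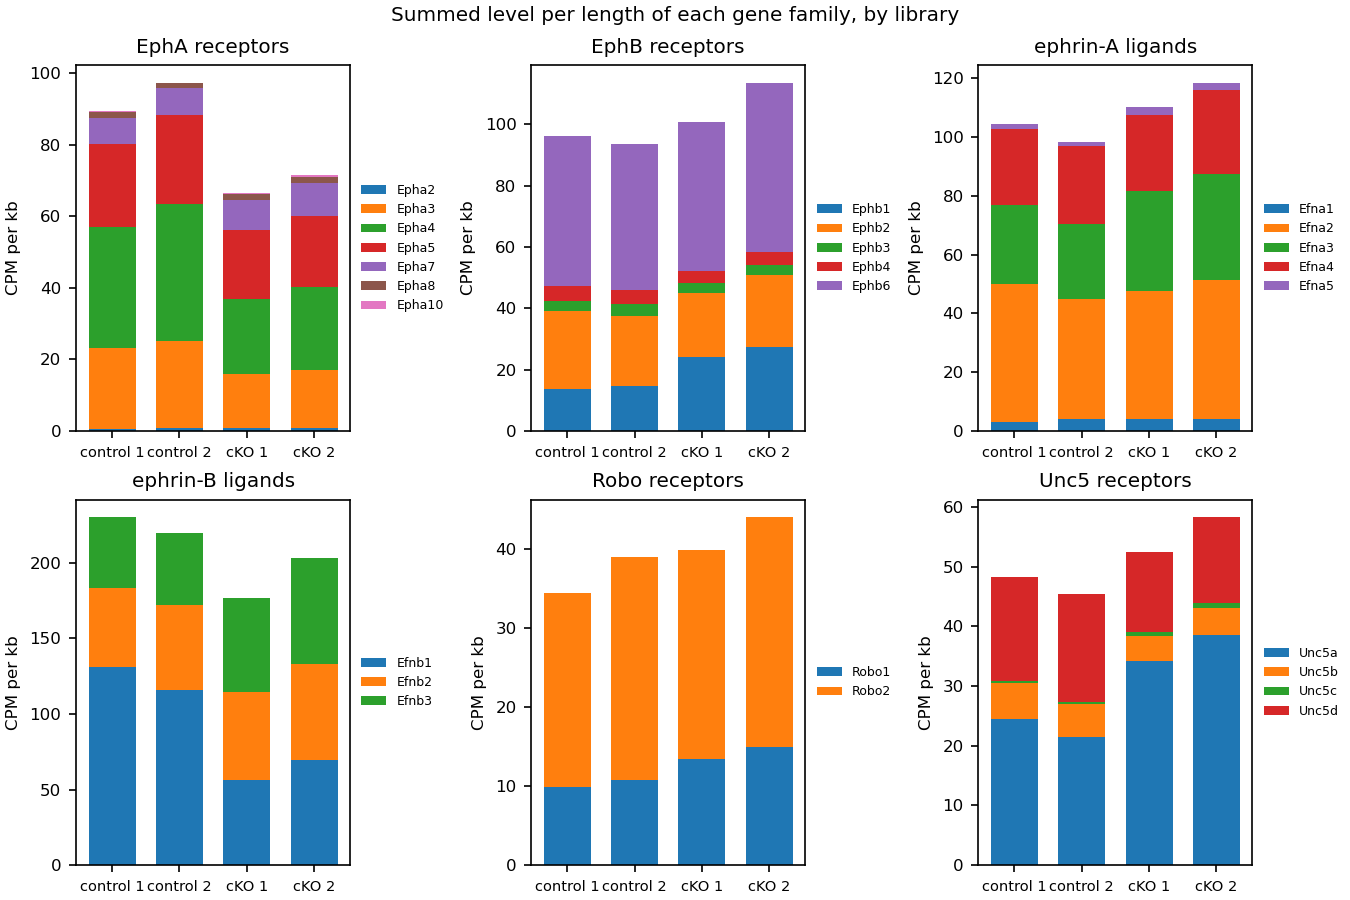
Each bar is a library and its height is the summed level of a family in CPM per kb of the deposited gene length, split by gene. The ephrin-B panel shows the Efnb1 segment shrinking from 56.8% and 52.8% of the sum in control to 31.8% and 34.3% in Lhx2 cKO, and the Unc5 panel shows the Unc5a segment growing.

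Of 7 Slit, Robo and Slit-Robo GAP genes tested, 2 were called, both higher, a share of 28.6% beside 20.8% over all genes. Their median log2 fold change was 0.08. By edgeR 0 of the 7 were called lower, beside 9.17% of all genes. An unadjusted p under 0.05 was found for 3 of the 7 and for 4253 of all 13288 genes tested. Counts of lower calls were also 0 in DESeq2 and limma-voom.

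Slit2 encodes a secreted repellent. It was at 13.3 and 15.1 CPM in control and at 20.5 and 22.2 CPM in Lhx2 cKO, which is 0.58 on the log2 scale with SE 0.141 and an edgeR adjusted p of 0.00194. Slit1, the other ligand, did not differ beyond the test's threshold, with 141 and 133 CPM in control and 141 and 148 CPM in Lhx2 cKO. Per length Slit1 held 97.8% and 97.4% of the level of the pair in control, and 96.7% and 96.6% in Lhx2 cKO, so Slit2 was the minor ligand in every library.

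Robo1, a receptor that guides interneurons and thalamic and callosal axons, was at 162 and 177 CPM in control and at 221 and 247 CPM in Lhx2 cKO. The groups did not overlap, and the log2 change was 0.46 (SE 0.097, adjusted p 3.97e-04 in edgeR). Robo2 was at 417 and 479 CPM in control and at 449 and 494 CPM in Lhx2 cKO, with overlapping groups (0.07, adjusted p 0.678). Robo1 took 28.6% and 27.5% of the summed level per length of this pair in control and 33.6% and 34.0% in Lhx2 cKO. The GTPase-activating proteins that bind the Robo cytoplasmic tail were not called: Srgap1 was at 0.22 (adjusted p 0.0873), Srgap2 at -0.16 and Srgap3 at 0.02 on the log2 fold change scale.

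Of 14 genes of the netrin system 8 were called, 5 higher and 3 lower, or 57.1% beside 20.8% over all genes. Their median log2 fold change was 0.03, and it was -0.02 without control 1, 0.13 without control 2, 0.21 without Lhx2 cKO 1 and -0.05 without Lhx2 cKO 2. The 3 lower calls fell to 1 without control 1 and to 1 without Lhx2 cKO 1, and the 5 higher calls fell to 3 without Lhx2 cKO 2. The receptor family Unc5 was called in all 4 of its genes, whereas Dcc, Neo1 and Dscam were not called.

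Among the ligands, Ntn1, which encodes the classical netrin-1, was at 3.55 and 4.88 CPM in control and at 9.10 and 7.88 CPM in Lhx2 cKO. The lower Lhx2 cKO library was above the higher control library, and the log2 change was 1.01 (SE 0.22, adjusted p 6.77e-04 in edgeR). Ntng2, which encodes the membrane-anchored netrin-G2, was at 302 and 211 CPM in control and at 195 and 193 CPM in Lhx2 cKO, which is -0.40 on the log2 scale with SE 0.111 and an edgeR adjusted p of 0.00672. Its fall rested on control 1: without that library the log2 fold change was -0.14 with an adjusted p of 0.525, and DESeq2 with all libraries gave 0.301, within a range of 2.66e-06 to 0.525 over the alternatives. In M21 14.0% of the Ntng2 exon bases also overlap 6530402F18Rik on the same strand, which makes its counts uncertain. Per length Ntng2 still held 88.9% or more of the summed level of the 4 netrin genes in each library. Ntn1 held 0.70% and 1.32% of it in control and 2.63% and 2.32% in Lhx2 cKO. That sum pools netrin-1 with membrane-anchored netrins, so it is no measure of ligand for Dcc or Unc5. Ntn4, a laminin-related netrin, and Ntng1 were not called, at -0.002 and -0.02 on the log2 fold change scale.

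The attractive receptor gene Dcc was at 110 and 123 CPM in control and at 107 and 122 CPM in Lhx2 cKO, with a log2 fold change of -0.02 (SE 0.097). Neo1, the neogenin gene, was at 351 and 384 CPM in control and at 358 and 406 CPM in Lhx2 cKO, a log2 fold change of 0.05 (SE 0.102). Dscam, which encodes a further netrin receptor, was at -0.15 (SE 0.096). Their summed level per length was 60.3 and 65.5 CPM per kb in control and 59.4 and 67.1 in Lhx2 cKO.

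Unc5 receptors, which mediate repulsion by netrin-1, split by gene. Unc5c was at 5.86 and 6.24 CPM in control and at 12.9 and 16.1 CPM in Lhx2 cKO, which is 1.26 on the log2 scale with SE 0.178 and an edgeR adjusted p of 7.02e-07. Unc5a was at 102 and 89.7 CPM in control and at 143 and 161 CPM in Lhx2 cKO, which is 0.66 on the log2 scale with SE 0.098 and an edgeR adjusted p of 1.75e-06. Both genes were higher in both Lhx2 cKO libraries than in either control.

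Unc5d, expressed by migrating and upper-layer cortical neurons, moved the other way. It was at 161 and 168 CPM in control and at 125 and 133 CPM in Lhx2 cKO, which is -0.35 on the log2 scale with SE 0.094 and an edgeR adjusted p of 0.00529. Unc5b, also known from endothelium, fell, with group means of 35.7 ± 2.54 and 27.3 ± 2.04 CPM (SD, n = 2) and a log2 change of -0.39. Of upper-layer markers, Cux1 (-0.48), Pou3f1 (-0.69), Pou3f2 (-0.55) and Inhba (-1.39) were also called lower, on the log2 scale, and Cux2 (0.05) was not called. Their part in the Unc5d result was not tested. The call of Unc5d was lost without Lhx2 cKO 1 (adjusted p 0.061, within 0.00266 to 0.061 over the alternatives). That of Unc5b was lost without control 1 (0.131) and without Lhx2 cKO 1 (0.108), within 0.00935 to 0.131. Unc5a held 50.8% and 47.3% of the summed Unc5 level per length in control and 65.1% and 66.1% in Lhx2 cKO. Unc5d held 36.1% and 40.1% in control against 25.8% and 24.6% in Lhx2 cKO. Before division by length, Unc5d was above Unc5a in control, at 164 against 96.0 CPM, and below it in Lhx2 cKO, at 129 against 152 CPM. The deposited lengths are 9.22 kb for Unc5d and 4.17 kb for Unc5a, so these shares depend on the lengths used. Unc5c stayed the gene of the lowest level per length in the family, with at most 1.44% of the sum.

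Draxin encodes a secreted repellent of forebrain commissural axons that binds Dcc. It was at 404 and 330 CPM in control and at 458 and 542 CPM in Lhx2 cKO, which is 0.45 on the log2 scale with SE 0.109 and an edgeR adjusted p of 0.00222, and the call was lost without control 2 (0.102) and without Lhx2 cKO 2 (0.0695), within 1.42e-04 to 0.102 over the alternatives. Rgma, a neogenin ligand, rose, with group means of 124 ± 0.277 and 157 ± 17.2 CPM (SD, n = 2) and a log2 change of 0.34 (adjusted p 0.00917). Without Lhx2 cKO 2 the log2 fold change of Rgma was 0.22 and the call was lost (0.257, within 0.00231 to 0.257). Rgmb was at 145 and 147 CPM in control and at 142 and 177 CPM in Lhx2 cKO and was not called.

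**Figure D3:**
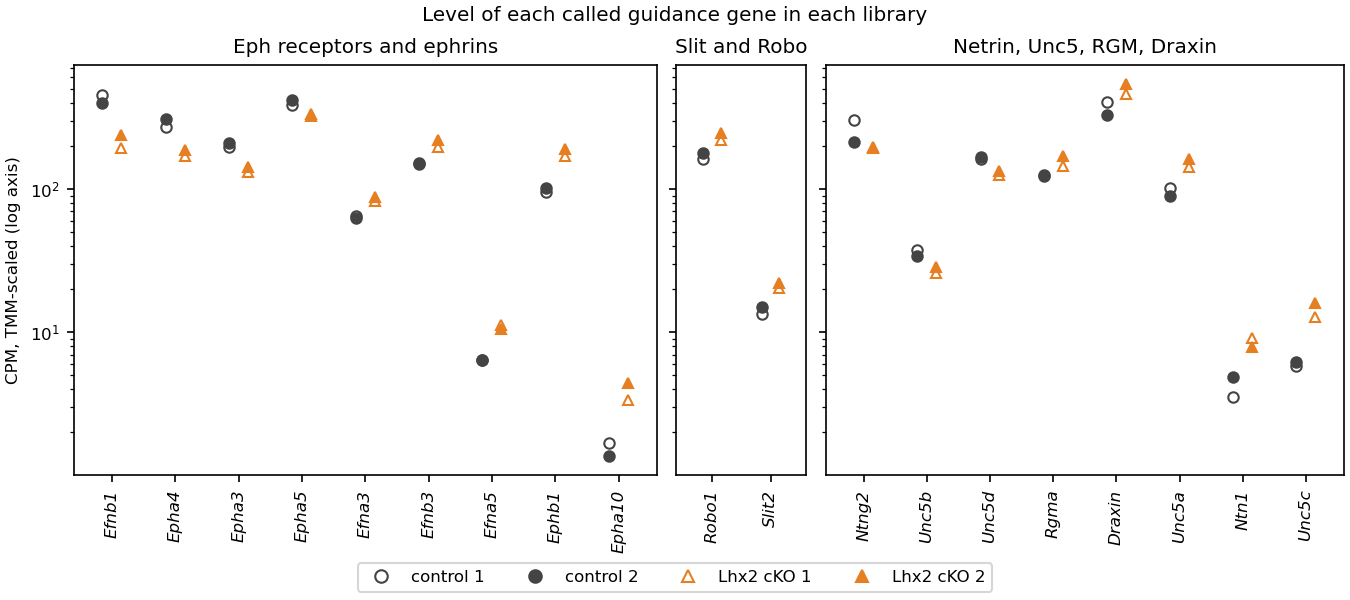
The y axis is the level in CPM on a log scale, circles are the 2 control libraries and triangles the 2 Lhx2 cKO libraries, for the 19 called genes ordered by fold change within each system. In each of the 19 genes the triangles and the circles do not overlap, and Ntng2 shows the widest gap between its controls, at 302 and 211 CPM.

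The 22 guidance genes that were not called had log2 fold changes between -0.22 and 0.22, and in 6 of them the groups did not overlap. The 59.3% over all genes includes called genes, so it is not a like share for these 22. The smallest adjusted p of the 22 was that of Srgap1. Per length, the guidance genes of the highest level in control were Efnb1 at 123 ± 10.5, Draxin at 70.6 ± 10.1 and Ntng2 at 64.4 ± 16.1 CPM per kb (SD, n = 2), and the last 2 did not differ beyond their spread. These ranks depend on the lengths used, and before division Robo2 was the highest in control, at 448 CPM. Epha10, Unc5c, Ntng1, Slit2, Ntn1 and Epha2 were at the low end, each under 1 CPM per kb in control. Among the 5 largest rises, those of Epha10, Unc5c, Ntn1 and Efna5 were in genes at under 7 CPM in every control library, and that of Ephb1 was not.

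**Figure D4:**
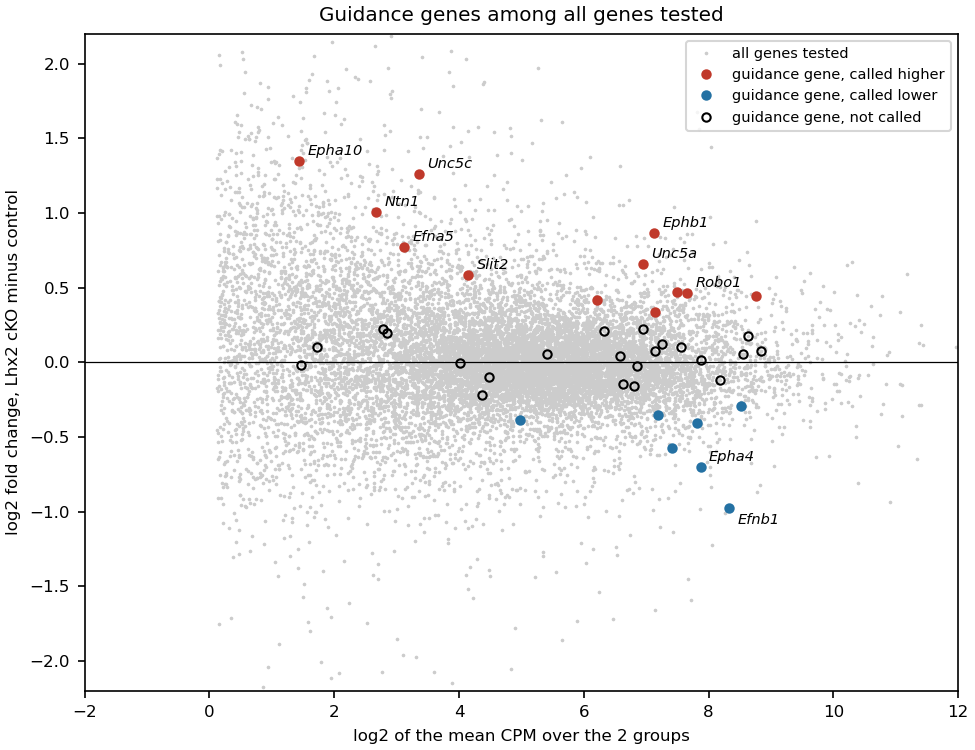
The x axis is the log2 mean level in CPM and the y axis the log2 fold change of Lhx2 cKO minus control, with all genes tested in grey and the 41 guidance genes in colour or as open circles, and 55 genes lie outside the axes. Efnb1 at -0.97 is the lowest guidance point and Epha10 at 1.35 the highest, and Epha10 lies at a low mean level, where the grey points spread more widely.

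Further genes of these pathways were taken from lists chosen with earlier results of these data known, so the shares called are a description only. Of 61 tested, 17 were called, 11 higher and 6 lower, or 27.9% beside 20.8% over all genes. The 11 higher calls went to 5 without control 1 and to 4 without Lhx2 cKO 2. When each library was left out in turn, 8 of the 17 calls held in all 4 fits, namely those of Flrt2, Flrt3, Dscaml1, Nell2, Lrrc4c, Ptpro, Cap2 and Bcar1. The other 9, Robo4, Ntn3, Rasa1, Adam10, Acp1, Enah, Ndfip1, Trim67 and Camk2b, were each lost in at least 1 of these fits, and those of Enah, Trim67 and Camk2b in all 4. Of 9 related ligands and receptors 7 were called (77.8%), a higher share than in any of the transducer lists below. Flrt2, whose product binds Unc5 receptors, was at 65.0 and 70.5 CPM in control and rose to 135 and 152 CPM, by 1.09 on the log2 scale. Flrt3, of the same family, fell, with group means of 89.3 ± 6.16 and 50.2 ± 3.59 CPM (SD, n = 2) and a log2 change of -0.83. Dscaml1, the paralog of Dscam, fell, with group means of 194 ± 6.08 and 103 ± 1.06 CPM (SD, n = 2) and a log2 change of -0.92. The other 4, named after their values were seen, were Robo4, Nell2, Lrrc4c and Ntn3, with log2 fold changes of 0.61, 0.57, 0.58 and 0.40.

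Intracellular transducers were called at shares near that of all genes. For Eph and ephrin signalling 4 of 22 were called, 3 higher and 1 lower. Ptpro, a phosphatase that acts on Eph receptors, rose, with group means of 223 ± 20.8 and 390 ± 57.9 CPM (SD, n = 2) and a log2 change of 0.81, with Acp1 at 0.35 and Rasa1 at -0.28. For Slit and Robo 3 of 14 were called, 1 higher and 2 lower. Cap2, an actin regulator, fell, with group means of 19.8 ± 0.783 and 8.69 ± 1.20 CPM (SD, n = 2) and a log2 change of -1.19, with Ndfip1 at 0.32 and Enah at -0.30. For netrin 3 of 16 were called, 2 higher and 1 lower. Bcar1, a focal adhesion scaffold, fell, with group means of 113 ± 4.38 and 75.0 ± 0.54 CPM (SD, n = 2) and a log2 change of -0.60, with Trim67 at 0.28 and Camk2b at 0.27.

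Markers of cell types in this tissue moved alongside, and their part in the guidance results was not tested. Over all genes 11.6% were called higher and 9.17% lower, and a sum can rest on 1 gene of high level. Intermediate progenitor markers summed to 778 to 790 CPM in control and to 480 to 503 CPM in Lhx2 cKO, with 5 of 7 called lower. Cell cycle genes summed to 362 to 411 and to 238 CPM in both Lhx2 cKO libraries, with 7 of 8 called lower. Radial glia markers summed to 837 to 885 and to 781 to 805 CPM, with 4 of 10 called lower and 1 higher. Pan-neuronal markers summed to 4043 to 4072 and to 4325 to 4602 CPM, with 2 of 7 called higher and 1 lower. Endothelial and pericyte markers summed to 247 to 280 and to 309 to 349 CPM, with 4 of 8 called higher and 1 lower. Their part in the levels of Unc5b, Ephb4, Efnb2 and Robo4 was not tested. Cajal-Retzius markers summed to 295 to 326 and to 447 to 570 CPM, with 4 of 6 called higher. Microglial markers summed to 105 to 107 and to 214 to 241 CPM, with 6 of 6 called higher. Interneuron markers summed to 208 to 242 and to 281 to 289 CPM, with 2 of 7 called higher. These were Sst, with group means of 42.3 and 89.2 CPM, and Gad2, with 24.6 and 34.3 CPM. Oligodendrocyte precursor markers summed to 46.8 to 53.6 and to 87.9 to 96.5 CPM, with 5 of 6 called higher, and astrocyte markers to 62.5 to 66.2 and to 105 to 109 CPM, with 4 of 5 called higher. Red blood cell genes summed to 2308 to 3132 and to 1857 to 2074 CPM, with 5 of 5 called lower. Meningeal markers summed to 36.2 to 38.8 and to 16.4 to 18.6 CPM, with 1 of 3 called lower. That gene was Col1a1, with group means of 24.4 and 3.05 CPM. Col1a2 (7.80 and 9.29 CPM) and Foxc1 (5.27 and 5.16 CPM) were not called. Deep-layer markers (7 tested) and markers of cortical hem and choroid plexus (3 tested) each had 1 call higher and 1 lower. No tested marker was at 0 in all libraries.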

How the data were processed

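RNA-seq libraries of polyadenylated RNA from E15 cortex were compared, 2 control and 2 Lhx2 cKO, grouped by their titles. The 4 library columns hold raw gene counts, deposited by the authors. Trim Galore, Subread, featureCounts, edgeR and mm39 are named in the submitters' processing notes, while versions, annotation and strand setting are not given in the sources used here. The authors' log2 fold change, log2 CPM, p-value, adjusted p-value and its -log10 were deposited in the same table, as was a gene length. The table lists 13289 genes with at least 102 counts each in total, so all CPM are over these genes.

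edgeR 4.0.16 in R 4.3.3 was run with TMM, filterByExpr (minimum 10 counts), glmQLFit and glmQLFTest without covariates, two-sided, with Benjamini-Hochberg adjustment over 13288 genes. The common biological coefficient of variation was 8.27%. edgeR pooled variance over genes with a median prior of 38.7 degrees of freedom, so the spread of a single gene between its 4 libraries had little weight. SE is the absolute log2 fold change over the square root of F. CPM are TMM-scaled, and levels per length are CPM divided by the deposited length in kb, which assumes 1 length per gene in all libraries. For the guidance genes that length equals the union of all annotated exons in GENCODE M21. Expressed transcripts may be shorter, so ranks and shares between genes depend on it. Fits were also run on simulated counts with 1 dispersion for all genes and changes planted only in genes with a mean count of at least 50. That run does not cover variance particular to a gene or changes in genes of few counts, and its outcome is not reported here.

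Alternatives were RLE, upper-quartile and total scaling, no filter, a mean count of at least 50, a replicate block, DESeq2 1.42.0, limma-voom (limma 3.58.1), an adjusted p under 0.01 and leaving out each library. In the last, the lone library is assumed to vary like the other group's. Promoters are from RefSeq on GRCm38.p6 and overlaps from GENCODE M21 on GRCm38, not the build of the counts. Values of all libraries were given for called genes of at least 1.5-fold change and the 3 smallest p per system, and up to 3 called genes by p for each pathway list. The genes and lists were chosen with earlier results of these data known.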

Additional observations from a re-analysis of the deposited data

How the results depend on the processing

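With all 4 libraries, the 19 called guidance genes kept their calls under RLE, upper-quartile and total scaling, without a filter, with the replicate block, with a minimum mean of 50 counts and in limma-voom, and DESeq2 lost Ntng2. At an adjusted p under 0.01, 17 of them remained, 1697 genes were called in all, higher pathway calls went to 4, and Lhx2 (-0.31) was not called, fewer by construction. The scalings moved the median log2 fold change of all genes by at most -0.01 (library totals). No called guidance gene changed sign under any alternative, which their groups, not overlapping, could hardly allow. Replicate numbers share only a number (correlation of replicate differences between groups -0.005 across genes). The replicate block called 2874 genes and changed no guidance call.

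Leaving out a library kept 15 to 17 of the 19 calls, with fewer samples behind each fit. Over these 4 fits all calls ranged from 1633 to 2396, higher pathway calls from 4 to 9, netrin lower calls from 1 to 3 and netrin higher calls from 3 to 5. The Lhx2 log2 fold change ranged from -0.38 to -0.25. The medians ranged from 0.051 to 0.159 (Eph and ephrin), from 0.041 to 0.178 (Slit and Robo) and from -0.046 to 0.209 (netrin). Signs turned for 10 genes that were not called. Ntn4, at -0.002, was at 6.36e-05 under upper-quartile scaling, 0.00511 with a minimum mean of 50 counts, 0.00943 with the replicate block and 0.0106 in limma-voom. The other sign changes came from leaving out 1 library. The ranges over the 4 fits were -0.203 to 0.472 for Epha2, -0.054 to 0.137 for Efna2, -0.023 to 0.126 for Efna4, -0.036 to 0.178 for Robo2, -0.00817 to 0.041 for Srgap3, -0.203 to 0.218 for Ntn4, -0.527 to 0.359 for Ntng1, -0.124 to 0.067 for Dcc, -0.043 to 0.142 for Neo1 and -0.048 to 0.277 for Rgmb. The cause was not tested. Depth limits the genes of few counts, such as Epha10, Ntng1 and Epha2.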
